A study of Dugesia japonica with 12 samples.

Results

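Whole planarians kept for 5 days in glyphosate at 64 mg per L were compared with unexposed worms: 3 libraries against 3, or 6 of the 12 libraries of the series. The worms were Dugesia japonica of the clonal, asexually reproducing laboratory strain Dj-NH, and all groups share that strain. The unexposed group received no glyphosate, and the labels give neither its sampling day nor how many worms went into a library. The other 6 libraries, 3 after 1 day and 3 after 3 days in the same solution, entered the statistical model to estimate the spread between libraries and appear in the plots of single transcripts. Polyadenylated RNA of entire animals was sequenced, so every cell type, the gut content and anything living on or in the worm could contribute.

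The labels place this concentration below the median lethal one. Glyphosate is a herbicide that blocks an enzyme of the shikimate pathway, which plants and many microbes use to make aromatic amino acids and which animals lack. Planarians are free-living flatworms whose tissues are renewed by neoblasts, dividing stem cells spread through the body that are the only proliferating cells of the adult. Newly made cells continuously replace gut, nerve, muscle and epidermal cells, so whole-worm RNA reflects both the state of cells and the makeup of the body. In the annotation, 0 transcripts matched an enzyme of the shikimate pathway.

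Abundance is in TPM, a measure of transcript abundance that is scaled for transcript length and to a fixed total per library. Transcripts carry the identifiers of the assembly, and their names are those of annotation hits, which show similarity and not the organism that made the RNA. Of 30535 listed transcripts, 27329 reached 1 TPM in at least 3 libraries and were tested. Unless stated otherwise, values are mean TPM ± SD over 3 libraries, and log2 fold changes are of TPM + 1, which understates the change of transcripts at low levels. The call, written as rose or fell, is an adjusted p under 0.05 in limma, with Benjamini-Hochberg adjustment over all tested transcripts. Separate cultures behind the replicates are not stated in the labels, so the p-values reflect no more than how these libraries varied, which may be technical. Reads per library are unknown, because TPM keeps no depth. The libraries summed to 978610 to 986584 TPM and 18888 to 23602 transcripts reached 1 TPM in each. Control replicate 1 and day 3 replicate 2 had the highest medians of log2(TPM + 1), 2.004 and 1.996 against 1.49 to 1.91 in the other 10 libraries.

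After 5 days, more transcripts were lower than higher. In all, 795 of the 27329 tested transcripts (2.91%) passed the threshold, 186 higher (0.681%) and 609 lower (2.23%) than in unexposed worms. Single libraries moved these counts, with 77 rises and 222 falls without control replicate 1, and with 78 and 197, 77 and 334, or 68 and 276 when day 5 replicate 1, 2 or 3 was left out. Without control replicate 3 there were 93 rises, and without day 3 replicate 2 there were 297. The ratio of rises to falls depended on the scaling. It was 679 to 746 after quantile normalization, 550 to 679 after median-ratio scaling and 326 to 384 when TPM was rescaled without the 2 most abundant transcripts. The median log2 fold change of all tested transcripts was -0.09 as deposited and 0.01, 0.004 and 0.03 under those 3 scalings, so list medians are to be read against that shift. The most abundant transcript, TRINITY_DN37864_c2_g1 with no hit, held 29.5, 42.8 and 41.4% of the nominal TPM total in control replicates 1, 2 and 3 and 28.5 to 32.1% at day 5. The next, TRINITY_DN36963_c0_g5 with no hit, held 5.80, 2.02 and 11.6% in control and 17.98, 19.7 and 24.8% at day 5. Every day 5 library lay above every control library for it, but it missed the threshold (limma adjusted p = 0.0531).

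The calls were spread unevenly over the classes of hit. Of 4159 tested transcripts with a flatworm hit, 16 rose (0.385%) and 122 fell (2.93%). The flatworm split was 132 to 181 after quantile normalization, 99 to 165 after median-ratio scaling and 50 to 61 when rescaled. Of 72 transcripts with a ciliate hit, 31 fell (43.1%) and 3 rose (4.17%). Bovid hits, from cattle and their relatives, fell in 16 of 51 cases (31.4%) with 0 rises (0%). Other hits gave 48 rises (0.691%) and 161 falls (2.32%) among 6950. Plant hits gave 13 rises (1.94%) and 8 falls (1.2%) among 669, and transcripts without a hit 106 (0.687%) and 271 (1.76%) among 15428. Median log2 fold changes were -0.12 over flatworm hits, -1.28 over ciliate hits and -1.15 over bovid hits. Values of control and day 5 did not overlap in 2105 tested transcripts that were higher at day 5 (7.7%) and in 4252 that were lower (15.6%). Of the 795 called transcripts, 406 share an assembly cluster with another tested transcript, so that reads may be split between near-identical copies and single levels are uncertain. The control and day 5 libraries did not overlap for any called transcript whose values are given, which the rule for naming most of them required.

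**Figure D1:**
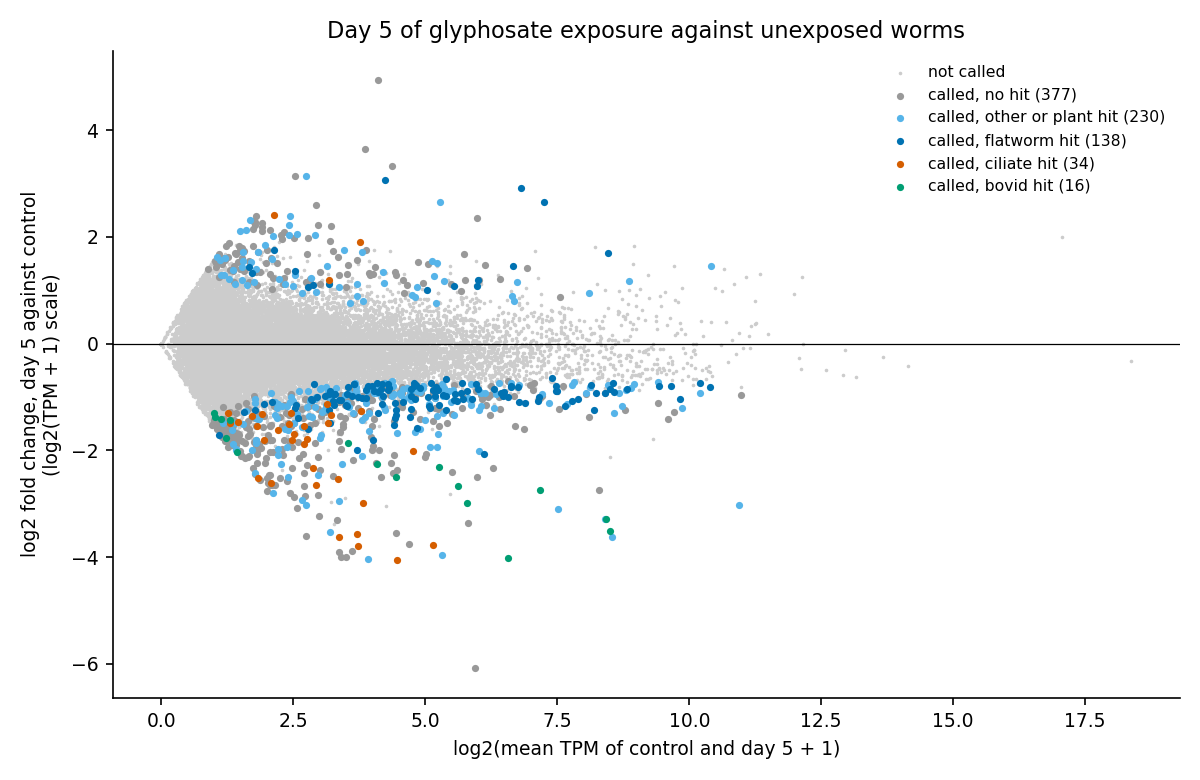
Log2 fold change of day 5 against control (vertical axis, log2(TPM + 1) scale) plotted against mean abundance (horizontal axis, log2 of mean TPM + 1) for the 27329 tested transcripts; coloured points are the 795 called ones by class of hit. Ciliate and bovid hits lie mostly below 0, while the 16 called flatworm hits above 0 are led by 3 transcripts at 2.65 to 3.06.

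Small heat shock proteins gave the largest rises among named flatworm transcripts. These chaperones hold unfolding proteins in a soluble state. The first, TRINITY_DN38028_c0_g1, stood at 30.7, 25.1 and 20.4 TPM in the control libraries and at 246, 184 and 164 TPM at day 5. Every exposed library was several times above every control library, and the mean went from 25.4 ± 5.15 to 198 ± 42.8 TPM (log2 fold change 2.91, SE 0.27, adjusted p = 2.15e-05). Its neighbour in the same assembly cluster, TRINITY_DN38028_c0_g2, went from 54.1, 35.3 and 34.8 to 299.8, 235 and 250.1 TPM (log2 fold change 2.65, SE 0.26, adjusted p = 4.05e-05). Both hits are the small HSP of Dugesia japonica itself, reads may be shared between them, and both calls held under all 24 alternatives tried. A broader list of 8 small heat shock transcripts that are neither ciliate nor bovid by hit had no further call and a median of -0.36, so the rise belonged to 2 of its members.

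Other chaperones were mostly not called. Of 26 flatworm-hit members of the HSP70, HSP90, DnaJ and chaperonin list 0 rose and 1 fell, beside falls in 2.93% of all flatworm hits. The list median of -0.12 became 0.01 to 0.05 under the 3 scalings. The one that fell was the 10 kDa mitochondrial chaperonin, which folds imported mitochondrial proteins, from 331, 341 and 287 to 139, 164 and 162 TPM (TRINITY_DN30949_c0_g1, log2 fold change -1.04, SE 0.17, adjusted p = 0.00291). That call held under all 24 alternatives. An HSP70 with a mollusc hit, chosen after its values were seen, rose from 21.6, 12.9 and 14.4 to 78.1, 46.6 and 31.2 TPM (TRINITY_DN39397_c1_g1, log2 fold change 1.55, SE 0.38, adjusted p = 0.0409). The call did not hold on leaving out any of 7 of the 12 libraries (adjusted p up to 0.185). Over all tested members of the list that are neither ciliate nor bovid by hit, 1 rose and 4 fell.

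A pair of catalases and a pair of metallothionein-like transcripts rose, none with a flatworm hit and all chosen after their values were seen, while the lists they belong to held both rises and falls. A catalase with a rotifer hit, which turns hydrogen peroxide into water and oxygen, stood at 26.3, 25.6 and 21.1 TPM in control and 55.4, 57.03 and 54.1 TPM at day 5 (TRINITY_DN36204_c0_g1, log2 fold change 1.16, SE 0.21, adjusted p = 0.00761), a call that held without any 1 of the 12 libraries. A second catalase, with a tick hit, went from 20.8 ± 8.01 to 48.99 ± 3.41 TPM (TRINITY_DN32940_c1_g1, adjusted p = 0.0438), and its call did not hold on leaving out any of 8 of the 12 libraries (adjusted p up to 0.149). The 20 tested antioxidant and glutathione transcripts with flatworm hits had 0 calls and a median of -0.41. With all hits other than ciliate and bovid, the antioxidant list had 4 rises and 3 falls among 92, with a median of -0.17. The ferritin and metal binding list over the same hits had 2 rises and 3 falls among 28, with a median of 0.04. The metallothionein-like transcripts have plant proteins as Swiss-Prot hits. Metallothioneins are small cysteine-rich proteins that bind metal ions. The first was at 0.3600, 0.1800 and 0.5400 TPM in control and 11.5, 9.68 and 11.7 TPM at day 5 (TRINITY_DN23386_c0_g2, log2 fold change 3.14, SE 0.24, adjusted p = 3.38e-06), and the second at 4.67, 2.81 and 3.66 and 13.3, 11.8 and 10.3 TPM (TRINITY_DN23911_c0_g1, log2 fold change 1.45, SE 0.24, adjusted p = 0.00362). The groups were far apart in both, and both calls held under all 23 alternatives. The 7 flatworm-hit members of the xenobiotic metabolism list, which holds cytochrome P450 and conjugating enzymes, and the 4 of the ABC transporter list had 0 calls. With all hits other than ciliate and bovid, the xenobiotic list had 1 rise and 3 falls among 86. Its highest log2 fold change was 2.31. The ABC transporter list over those hits had 0 calls among 30. For scale, 0.681% of all tested transcripts rose and 2.23% fell.

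A few lysosomal proteases rose. Cathepsins are proteases of the lysosome, and in planarians they are abundant in the phagocytic cells of the gut. Cathepsin B with a flatworm hit went from 35.9, 26.7 and 24.5 TPM to 61.5, 67.7 and 56.03 TPM (TRINITY_DN39563_c3_g9, log2 fold change 1.08, SE 0.25, adjusted p = 0.0309). The naming rule required its day 5 libraries to lie apart from control. The call did not hold on leaving out any of 5 of the 12 libraries (adjusted p up to 0.107). Among the 30 tested cathepsins and lysosomal proteases that are neither ciliate nor bovid by hit, 4 rose and 0 fell, and the median was 0.47. Over all tested transcripts 0.681% rose. The abundant cathepsin L TRINITY_DN34166_c8_g1, with an octopus hit and chosen after its values were seen, stood at 294 ± 130.0 and 629 ± 76.1 TPM (adjusted p = 0.0437). The cathepsin L TRINITY_DN35444_c1_g2, with a ribbon worm hit and chosen likewise, went from 67.1 ± 23.1 to 145 ± 14.5 TPM (adjusted p = 0.0234). Their calls were lost on leaving out any of 9 and 5 of the 12 libraries, respectively. The cysteine protease TRINITY_DN16638_c0_g1 with a tapeworm hit went from 3.34, 1.22 and 2.29 to 8.69, 7.94 and 5.24 TPM (adjusted p = 0.0459), and its call did not hold on leaving out any of 10 of the 12 libraries (adjusted p up to 0.178).

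The gut markers as a set lay higher in level. Their 21 transcripts (cathepsins, trypsins, lipases and saposins) summed to 436 to 768 TPM in control and 916 to 1166 TPM at day 5, so the groups did not overlap, although 1 member was called (median log2 fold change 0.57). Fewer cells of a type and less RNA per cell cannot be told apart in RNA of whole worms, and the same holds for more. Digestive enzymes with flatworm hits had 0 calls among 25, with a median of 0.17 as deposited and 0.28 to 0.31 under the 3 scalings. With all hits other than ciliate and bovid, 1 of 111 rose and 1 fell, with a median of 0.06. Over all tested transcripts 0.681% rose and 2.23% fell. An alpha-N-acetylgalactosaminidase, a lysosomal sugar-cleaving enzyme with a beetle hit, rose from 3.17, 9.81 and 4.73 to 21.7, 17.4 and 20.9 TPM (TRINITY_DN38779_c2_g3, log2 fold change 1.72, SE 0.31, adjusted p = 0.00792), and its call held under all 23 alternatives. The autophagy list had 0 calls among its 5 flatworm-hit members. Among its 26 members that are neither ciliate nor bovid by hit 1 rose and 0 fell.

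Further flatworm transcripts that rose include secreted proteins and enzymes. The matrix metalloproteinase mmp1, which cuts extracellular matrix, went from 33.8, 106 and 34.7 to 171, 125 and 128 TPM (TRINITY_DN36780_c0_g3, log2 fold change 1.46, SE 0.34, adjusted p = 0.0302). Control replicate 2 lay well above the other 2 controls, and the call did not hold on leaving out any of 5 of the 12 libraries (adjusted p up to 0.145). A transcript of a secreted venom allergen 5-like protein showed the same spread in control, with 99.4, 409 and 90.7 TPM against 565, 475 and 478 TPM at day 5 (TRINITY_DN38708_c3_g2, adjusted p = 0.0407), and its call did not hold on leaving out any of 5 of the 12 libraries (adjusted p up to 0.178). A porcupine-like membrane O-acyltransferase, of the family that attaches lipid to Wnt proteins, rose from 32.97, 41.6 and 39.8 to 82.98, 94.9 and 84.97 TPM (TRINITY_DN31647_c4_g5, log2 fold change 1.18, SE 0.23, adjusted p = 0.0123). This call did not hold without control replicate 1 or day 5 replicate 2 (adjusted p up to 0.0638). A rolling stone transcript, named after a fly protein of muscle formation, went from 3.71 ± 1.12 to 8.900 ± 1.13 TPM (TRINITY_DN33187_c1_g2, adjusted p = 0.0252), and its call did not hold on leaving out any of 4 of the 12 libraries (adjusted p up to 0.122).

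The largest rise of any transcript with a flatworm hit had no named protein and was chosen after its values were seen. TRINITY_DN32575_c0_g1, similar to the hypothetical protein MS3_00827 of Schistosoma haematobium, stood at 2.39, 3.86 and 2.91 TPM in control and 30.4, 34.3 and 32.6 TPM at day 5 (log2 fold change 3.06, SE 0.29, adjusted p = 3.06e-05), and its call held under all 24 alternatives. The remaining 7 of the 16 flatworm-hit rises were named after their values were seen too. They were a dual specificity phosphatase, a pannexin-like gap junction protein, a pair of transcripts named GCR158, the transporter slc47a-7, a transcript named stem cell tumor and a vault inter-alpha-trypsin protein. The gap junction transcript, an innexin by its Swiss-Prot hit, went from 40.5 ± 13.1 to 83.4 ± 4.56 TPM (TRINITY_DN34689_c1_g2, adjusted p = 0.0357), and its call did not hold on leaving out any of 5 of the 12 libraries (adjusted p up to 0.156).

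Several genes of DNA synthesis fell. Of 21 tested flatworm-hit members of the DNA replication and nucleotide synthesis list 6 fell and 0 rose. Over all flatworm hits 2.93% fell and 0.385% rose. In the list 19 had a log2 fold change below 0, as had 2587 of the 4159 flatworm hits. The list median was -0.70 against -0.09 over all tested transcripts. Under the 3 scalings the median was -0.56 to -0.53 with 5 to 9 falls. Ribonucleotide reductase makes the building blocks of DNA, and its subunit M2-2 stood at 29.1, 20.04 and 22.9 TPM in control and 6.0, 6.21 and 6.07 TPM at day 5 (TRINITY_DN33815_c0_g1, log2 fold change -1.80, SE 0.21, adjusted p = 0.000217). The day 5 libraries were almost identical to each other and all far below control. A second transcript of that subunit, TRINITY_DN35213_c3_g1, fell from 32.2, 30.7 and 28.1 to 8.79, 9.92 and 11.01 TPM (log2 fold change -1.53, SE 0.19, adjusted p = 0.00036). Both calls held under all 24 alternatives.

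3 other members of the list that fell were chosen after their values were seen, and the calls of all 3 were lost without control replicate 1. The sliding clamp of DNA polymerase, proliferating cell nuclear antigen of Dugesia japonica, went from 16.2, 15.1 and 14.3 to 5.94, 8.33 and 7.600 TPM (TRINITY_DN29941_c0_g1, log2 fold change -0.98, SE 0.20, adjusted p = 0.0146). No day 5 library reached the lowest control. The call did not hold without control replicate 1, day 5 replicate 1 or day 5 replicate 3 (adjusted p up to 0.0844). Minichromosome maintenance protein 4, a subunit of the helicase that opens replication origins, went from 12.4 ± 2.78 to 4.95 ± 0.3201 TPM (TRINITY_DN34681_c0_g1, adjusted p = 0.011), and the 70 kDa subunit of replication protein A, which coats single-stranded DNA, from 11.6 ± 2.72 to 4.31 ± 0.872 TPM (TRINITY_DN32916_c1_g2, adjusted p = 0.0246). The first of these calls did not hold without control replicate 1 or day 5 replicate 1 (adjusted p up to 0.0623), and the second did not hold on leaving out any of 4 of the 12 libraries (adjusted p up to 0.122). Without control replicate 1 the list had 2 falls, and over the 12 libraries left out in turn it had 2 to 8.

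Some histones fell, and few division genes passed the threshold. Of 13 flatworm-hit histones 3 fell (median -0.47), beside falls in 2.93% of all flatworm hits. The count was 2 or 3 whichever library was left out and 1 to 3 under the 3 scalings. Histone H2B-2 went from 44.6, 34.6 and 30.4 to 10.1, 13.00 and 18.1 TPM (TRINITY_DN32678_c1_g3, log2 fold change -1.37, SE 0.22, adjusted p = 0.00319), a call that held under all 24 alternatives. The variant H2A.Z, chosen after its values were seen, fell from 28.4 ± 4.03 to 12.6 ± 1.34 TPM (TRINITY_DN36760_c1_g4, adjusted p = 0.0078). That call held without any 1 of the 12 libraries and was lost under 1 other alternative (adjusted p = 0.054). In the list of cyclins, cyclin-dependent kinases and mitosis genes 2 of 47 fell (median -0.32), beside 2.93% of all flatworm hits. Leaving out 1 library gave 0 to 2 falls, and quantile normalization and median-ratio scaling each gave 1 rise and 3 falls. One that fell was the regulatory subunit that binds these kinases, from 13.1, 17.7 and 12.98 to 5.33, 6.22 and 6.53 TPM (TRINITY_DN12668_c0_g1, log2 fold change -1.14, SE 0.22, adjusted p = 0.00961). Its call did not hold without day 5 replicate 1 (adjusted p up to 0.0552).

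Germ-granule genes, which neoblasts express, were mostly not called. Of 53 tested flatworm-hit members of the germ granule and RNA helicase list 2 fell, with a median of -0.30, beside falls in 2.93% of all flatworm hits. The median was -0.18 to -0.15 under the 3 scalings and -0.09 without control replicate 1, and leaving out 1 library gave 0 to 5 falls. DjVLGA, a vasa-like RNA helicase of Dugesia japonica that marks neoblasts and germ cells, went from 66.3, 68.5 and 50.5 to 23.4, 31.2 and 32.6 TPM (TRINITY_DN35646_c1_g2, log2 fold change -1.06, SE 0.20, adjusted p = 0.0082). Its day 5 libraries had to lie apart from control under the naming rule. The call did not hold without day 5 replicate 1 (adjusted p up to 0.0533). The 26 neoblast markers, 25 of them tested, summed to 698 to 999 TPM in control and 461 to 530 TPM at day 5. Of the 25, 7 fell and 0 rose with a median of -0.70, beside falls in 2.23% of all tested transcripts. The neoblast markers include the replication genes described above. The marker sums overlapped between control and day 5 for muscle (144 to 313 and 100.5 to 214 TPM) and neurons (85.3 to 166 and 96.4 to 106 TPM). For ciliated epidermis they ran from 42.3 to 64.3 TPM in control and from 29.4 to 41.3 TPM at day 5. These 3 marker sets had 0 calls among 8, 10 and 8 tested transcripts, and 0 of their transcripts were at 0 TPM in every library of either group.

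**Figure D2:**
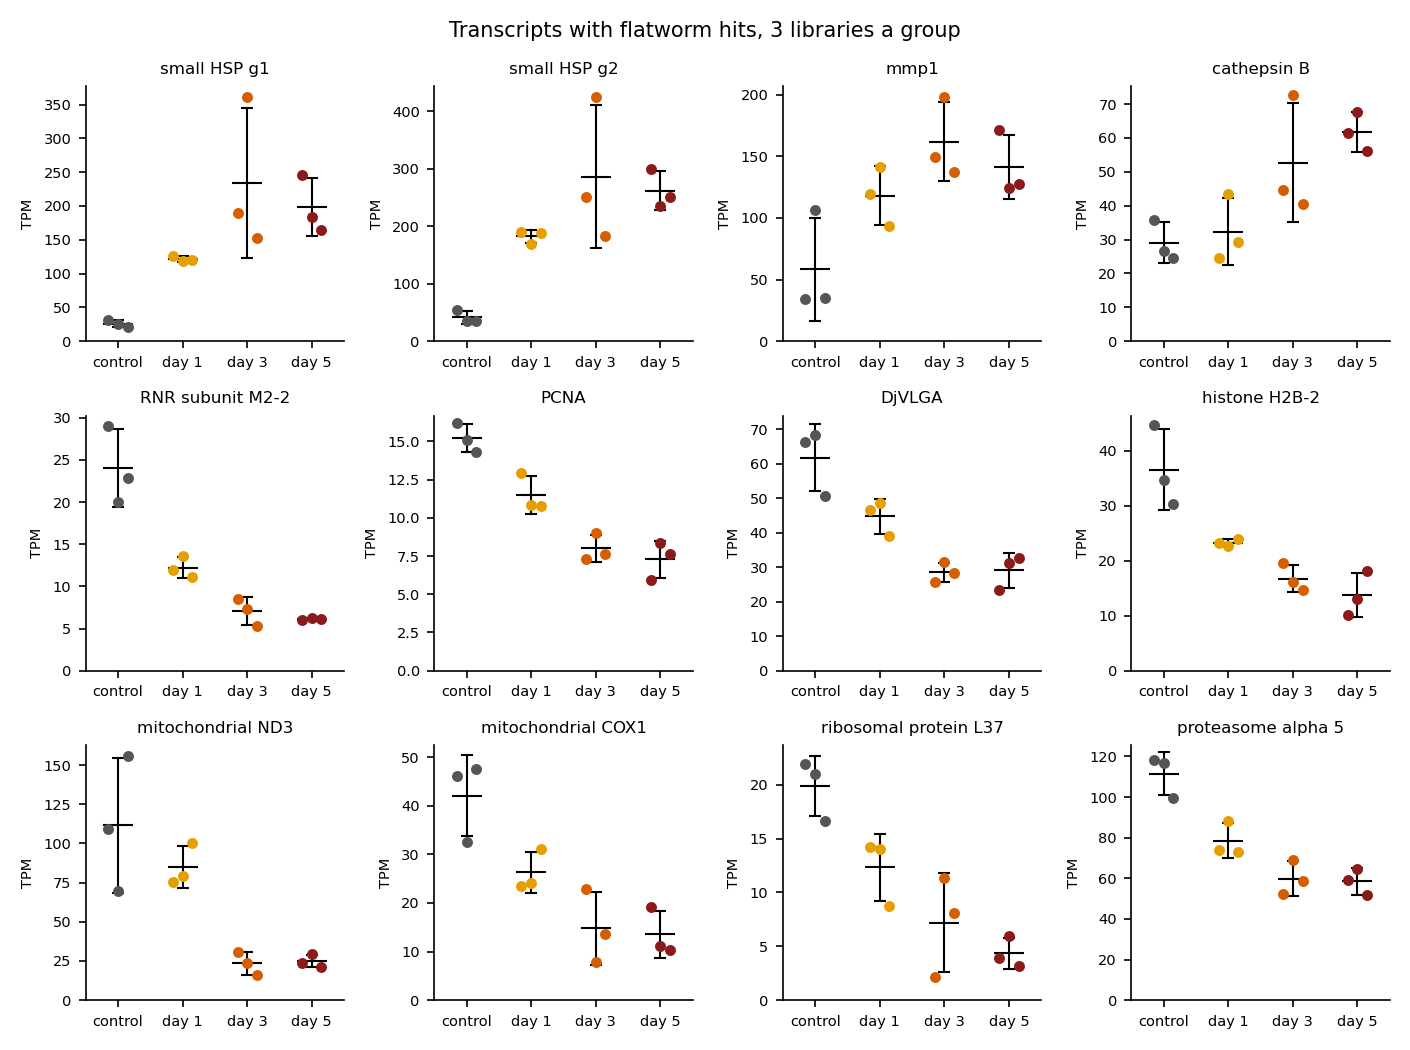
TPM (vertical axes, each starting at 0) of 12 transcripts with flatworm hits in every library of the control, day 1, day 3 and day 5 groups; points are libraries, and bars are the mean and SD of 3. The top row shows rises, with small HSP transcripts at 164 to 246 TPM and above at day 5, and the other rows show falls, with ribonucleotide reductase (RNR) subunit M2-2 near 6 TPM in all 3 day 5 libraries.

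Ribosomal protein transcripts were lower by small amounts. Of 41 tested cytosolic ribosomal proteins with flatworm hits 9 fell and 0 rose, beside falls in 2.93% of all flatworm hits. In this list 40 had a log2 fold change below 0, as had 2587 of the 4159 flatworm hits. The list median was -0.57. The largest fall was that of ribosomal protein L37 of the large subunit, from 21.9, 21.01 and 16.7 to 3.88, 5.99 and 3.13 TPM (TRINITY_DN41664_c0_g1, log2 fold change -1.99, SE 0.39, adjusted p = 0.0114). This transcript has 247 bases, and its call did not hold without control replicate 1, day 5 replicate 1 or day 5 replicate 3 (adjusted p up to 0.0556). The abundant ribosomal protein S28, chosen after its values were seen, went from 1412, 1218 and 1031 to 572, 608 and 599 TPM (TRINITY_DN7019_c0_g1, log2 fold change -1.03, SE 0.20, adjusted p = 0.0121), and its call did not hold without control replicate 1, day 5 replicate 1 or day 5 replicate 3 (adjusted p up to 0.0642). The count of 9 depended on the setting: it was 3 to 7 under the 3 scalings, 0 without control replicate 1 and 0 to 10 over the libraries left out in turn, while the median was -0.43 to -0.37 under the scalings and -0.50 without control replicate 1. The 281 tested ribosomal proteins that are neither ciliate nor bovid by hit had 1 rise and 30 falls. Over all tested transcripts 0.681% rose and 2.23% fell.

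Translation and RNA-processing lists leaned the same way. Of 38 translation factors and tRNA synthetases 2 fell (median -0.33), beside falls in 2.93% of all flatworm hits. Among them a translation initiation factor transcript stood at 11.8 ± 2.56 TPM in control and 5.62 ± 0.511 TPM at day 5 (TRINITY_DN35234_c4_g1, adjusted p = 0.0296), and its call did not hold on leaving out any of 5 of the 12 libraries (adjusted p up to 0.136). Of 56 splicing genes 5 fell (median -0.34), beside the same 2.93%. LSm8, which binds the U6 small nuclear RNA of the spliceosome, went from 16.2, 16.4 and 11.98 to 5.85, 5.41 and 6.88 TPM (TRINITY_DN35372_c2_g3, log2 fold change -1.16, SE 0.24, adjusted p = 0.0152), and its call did not hold without control replicate 1, day 5 replicate 1 or day 5 replicate 2 (adjusted p up to 0.069). Y-box protein 1, an RNA-binding protein chosen after its values were seen, fell from 278 ± 73.7 to 122 ± 16.2 TPM (TRINITY_DN35953_c0_g1, adjusted p = 0.0194), and its call did not hold on leaving out any of 4 of the 12 libraries (adjusted p up to 0.104). Without control replicate 1 the splicing list had 1 fall.

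Transcripts of the proteasome, which degrades ubiquitin-tagged proteins, leaned lower. Each of 29 flatworm-hit transcripts had a log2 fold change below 0, between -0.92 and -0.13 with a median of -0.55. Below 0 were 2587 of all 4159 flatworm hits. Of the 29, 4 fell, beside falls in 2.93% of all flatworm hits. Under the 3 scalings the median was -0.41 to -0.38. The alpha 5 subunit went from 118, 117 and 99.5 to 58.95, 64.6 and 51.8 TPM (TRINITY_DN34971_c0_g1, log2 fold change -0.92, SE 0.18, adjusted p = 0.0113). The call did not hold without control replicate 1 or day 5 replicate 3 (adjusted p up to 0.0671), and the list had 0 falls without control replicate 1 and up to 8 without another library. Of 60 ubiquitin conjugation transcripts 2 fell (median -0.14), beside falls in 2.93% of all flatworm hits, and without control replicate 1 the count was 0. After quantile normalization 3 rose and 1 fell. Of the 2 falls as deposited, 1 was a small ubiquitin-related modifier, which went from 137 ± 10.2 to 77.7 ± 11.3 TPM (TRINITY_DN28805_c0_g1, adjusted p = 0.0381). Its call did not hold on leaving out any of 7 of the 12 libraries (adjusted p up to 0.169). The 273 tested members of that list that are neither ciliate nor bovid by hit had 5 rises and 3 falls. Over all tested transcripts 0.681% rose and 2.23% fell.

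Of the mitochondrially encoded transcripts, those with flatworm hits leaned lower. All 10 flatworm-hit transcripts of mitochondrially encoded respiratory genes had a log2 fold change below 0, with a median of -1.12. Below 0 were 2587 of all 4159 flatworm hits. Of the 10, 3 fell, beside falls in 2.93% of all flatworm hits. Under the 3 scalings the median was -0.99 to -0.94 with 1 or 2 falls, and without control replicate 1 there was 1 fall. With all hits other than ciliate and bovid the list had 4 falls and 0 rises among 32, beside falls in 2.23% of all tested transcripts. Its median over those hits was -0.13, near the -0.09 of all tested transcripts. ND3, a subunit of respiratory complex I, stood at 109, 69.8 and 156 TPM in control and 23.9, 29.1 and 21.5 TPM at day 5 (TRINITY_DN34363_c3_g9, log2 fold change -2.06, SE 0.28, adjusted p = 0.000678). The control libraries differed among themselves, yet the lowest was over 2 times the highest day 5 one. The call held under all 24 alternatives. Cytochrome c oxidase subunit I of Dugesia japonica, the catalytic subunit of complex IV, went from 46.1, 32.5 and 47.5 to 19.1, 11.2 and 10.4 TPM (TRINITY_DN38996_c3_g1, log2 fold change -1.59, SE 0.31, adjusted p = 0.0127), and its call did not hold without control replicate 1, day 5 replicate 2 or day 5 replicate 3 (adjusted p up to 0.0623). ND2, from the same assembly cluster as ND3, went from 9.400 ± 5.13 to 2.25 ± 0.7102 TPM (TRINITY_DN34363_c3_g7, adjusted p = 0.0365), and its call did not hold on leaving out any of 5 of the 12 libraries (adjusted p up to 0.153).

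Among the lists of nuclear mitochondrial and metabolic genes, falls were most numerous in that of the mitochondrial ribosome and import. Of 44 mitochondrial ribosome and import transcripts 8 fell and 0 rose (median -0.60), beside falls in 2.93% of all flatworm hits. There were 4 falls without control replicate 1 and 1 to 11 over the libraries left out in turn. The counts were 16 falls and 2 rises after quantile normalization, 12 falls and 1 rise after median-ratio scaling and 3 falls and 0 rises when rescaled. The mitochondrial ribosomal protein L51 went from 34.7, 40.4 and 33.6 to 12.1, 15.3 and 17.6 TPM (TRINITY_DN34640_c2_g1, log2 fold change -1.23, SE 0.20, adjusted p = 0.00307), a call that held under all 24 alternatives. Of 29 nuclear oxidative phosphorylation transcripts 1 fell (median -0.25), beside 2.93% of all flatworm hits. Under the 3 scalings the median was -0.12 to -0.08, with 0 falls after median-ratio scaling or rescaling and 2 after quantile normalization. The one as deposited was subunit 9 of ATP synthase, part of its proton-carrying ring, from 224, 269 and 205 to 101, 142 and 133 TPM (TRINITY_DN34408_c1_g10, log2 fold change -0.90, SE 0.18, adjusted p = 0.0163), and its call did not hold without control replicate 2 or day 5 replicate 1 (adjusted p up to 0.0936). Of 31 glycolysis and citric acid cycle transcripts 3 fell (median -0.40), beside the same 2.93%. They were led by the acetyltransferase core of pyruvate dehydrogenase, from 78.9 ± 15.8 to 37.9 ± 7.94 TPM (TRINITY_DN35069_c1_g3, adjusted p = 0.0151). This call did not hold without control replicate 1 or day 5 replicate 1 (adjusted p up to 0.086). The glycolysis and citric acid cycle list had 0 falls without control replicate 1 and 1 when rescaled. In lipid metabolism 1 of 40 fell (median 0.02), beside 2.93% of all flatworm hits. After quantile normalization that list had 5 rises and 1 fall. The one that fell as deposited was a hydroxyacyl-CoA dehydrogenase at 20.2 ± 4.0 and 10.5 ± 2.11 TPM (TRINITY_DN32293_c2_g1, adjusted p = 0.0297), and its call did not hold on leaving out any of 4 of the 12 libraries (adjusted p up to 0.139).

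**Figure D3:**
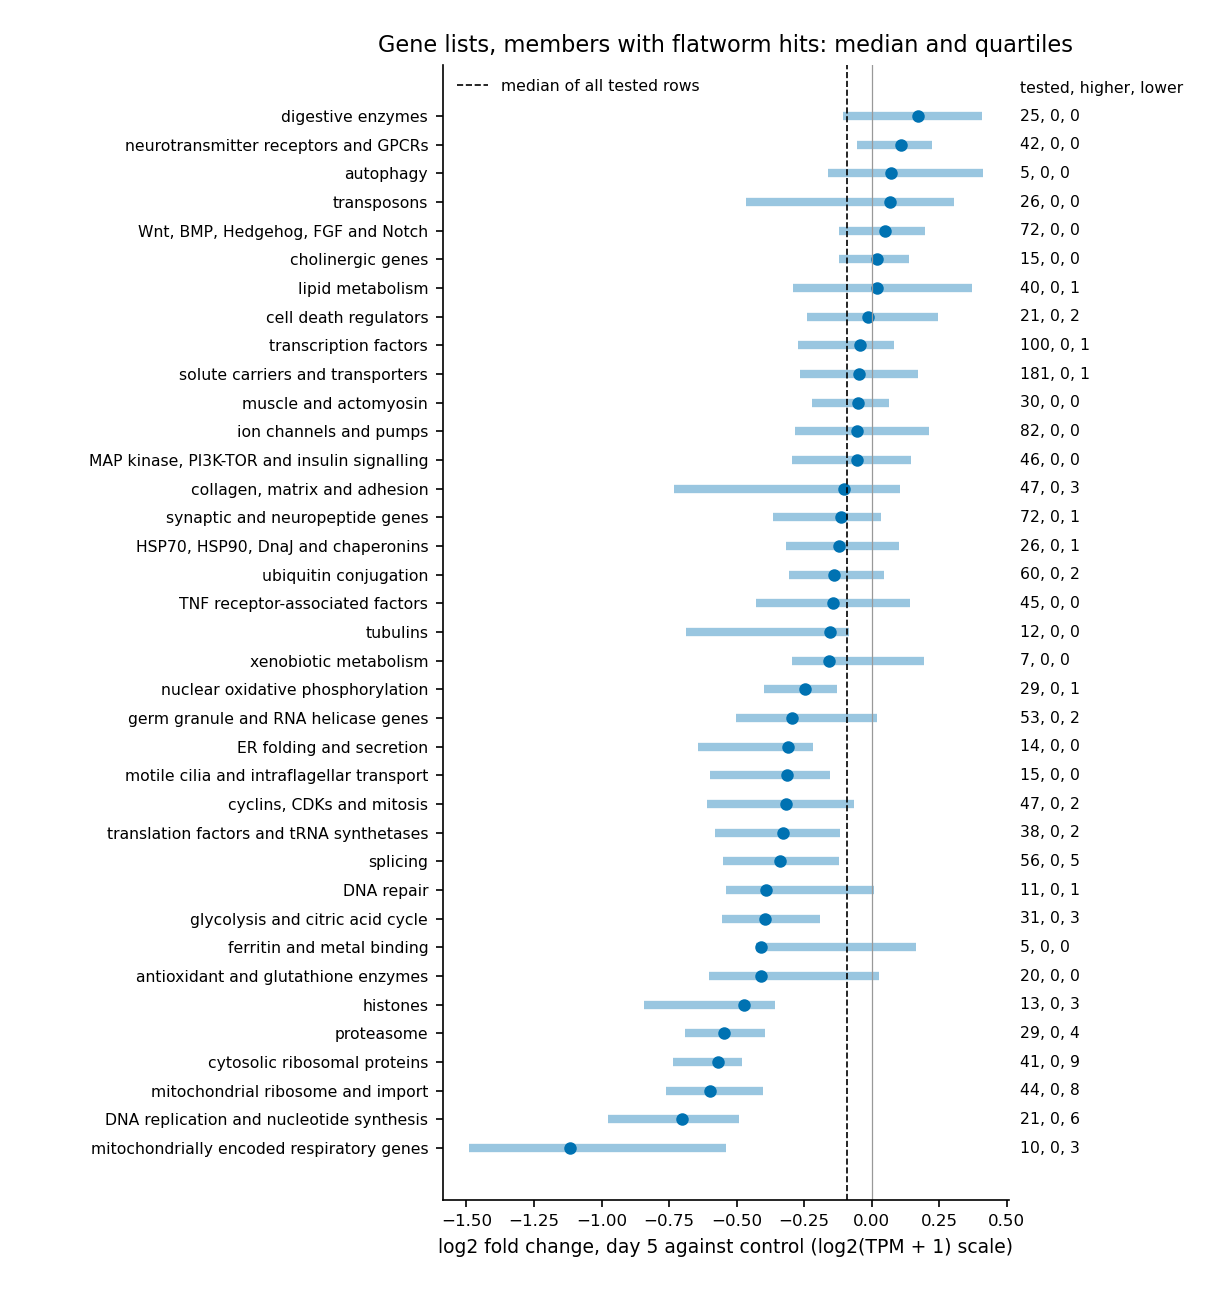
Log2 fold change of day 5 against control (horizontal axis, log2(TPM + 1) scale) of the flatworm-hit members of each gene list with at least 5 tested members; points are medians, bars span the quartiles, and the numbers at the right give tested, higher and lower members. The dashed line is the median of all 27329 tested transcripts (-0.09); mitochondrially encoded, DNA replication, mitochondrial ribosome, ribosomal protein and proteasome lists lie farthest below it.

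Among 21 flatworm-hit cell death regulators 2 fell and 0 rose (median -0.01), beside falls in 2.93% of all flatworm hits. The split was 4 rises and 2 falls after quantile normalization, and there were 0 calls without control replicate 1. The bcl2-like protein, from a family that controls release of death factors from mitochondria, went from 11.9 ± 2.74 to 5.197 ± 1.81 TPM (TRINITY_DN39481_c2_g9, adjusted p = 0.0496), and its call did not hold on leaving out any of 10 of the 12 libraries (adjusted p up to 0.213). The other, chosen after its values were seen, was an apoptosis inhibitor 5 transcript, from 60.9 ± 9.88 to 31.01 ± 4.59 TPM (TRINITY_DN35270_c0_g1, adjusted p = 0.0134), and its call did not hold without control replicate 1 or day 5 replicate 1 (adjusted p up to 0.079). Outside the flatworm hits, a lifeguard-like protein with a mite hit, related to inhibitors of cell death, rose from 0.1200, 0.9600 and 1.35 to 7.61, 8.86 and 7.59 TPM (log2 fold change 2.38, SE 0.30, adjusted p = 0.000313; TRINITY_DN35442_c1_g1). The groups were far apart, and the call held under all 23 alternatives.

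TNF receptor-associated factors are adaptors of immune signalling and form an expanded family in planarians. Their 45 flatworm-hit transcripts had 0 calls and a median of -0.14. Among the 103 tested members that are neither ciliate nor bovid by hit 2 rose and 0 fell, beside rises in 0.681% of all tested transcripts. Both that rose are named TNF receptor-associated factor 3, and both were chosen after their values were seen. TRINITY_DN38564_c0_g1 went from 18.8 ± 3.32 to 34.9 ± 2.84 TPM (adjusted p = 0.0384), and its call did not hold on leaving out any of 5 of the 12 libraries (adjusted p up to 0.153). TRINITY_DN33177_c0_g2 went from 10.6 ± 0.9196 to 24.8 ± 4.55 TPM (adjusted p = 0.0418), and its call did not hold on leaving out any of 7 of the 12 libraries (adjusted p up to 0.152).

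Nerve, muscle and signalling genes with flatworm hits hardly passed the threshold. There were 0 calls among 82 ion channels and pumps, 42 neurotransmitter receptors and other G protein-coupled receptors, 15 cholinergic genes, 30 muscle and actomyosin genes, 46 MAP kinase, PI3K-TOR and insulin signalling genes, and 72 genes of the Wnt, BMP, Hedgehog, FGF and Notch pathways. Their medians ran from -0.06 to 0.11, against -0.09 over all tested transcripts. The receptor list lay 0.20 above that overall median as deposited and 0.20 to 0.22 above it under the 3 scalings. For the Wnt, BMP, Hedgehog, FGF and Notch list the offset was 0.14 as deposited and 0.15 under each scaling. Quantile normalization gave 1 or 2 rises in the channel, kinase and patterning lists. The flatworm-hit lists of ferritin and metal binding (5 tested), endoplasmic reticulum folding (14), tubulins (12), motile cilia (15) and transposons (26) had 0 calls as well. With all hits other than ciliate and bovid, 5 of 48 tubulins fell and 0 rose, beside falls in 2.23% of all tested transcripts. Over those hits 1 of 107 motile cilia transcripts and 1 of 272 transposons fell, and 0 rose. Of 72 synaptic and neuropeptide genes 1 fell, beside falls in 2.93% of all flatworm hits. It was the secreted peptide prohormone 18, from 33.8, 30.4 and 23.7 to 7.54, 15.3 and 13.6 TPM (TRINITY_DN28060_c0_g1, log2 fold change -1.25, SE 0.25, adjusted p = 0.016). Its call did not hold without control replicate 1 or day 5 replicate 1 (adjusted p up to 0.0829). A transcript similar to a calcium-activated chloride channel regulator with a fish hit rose from 2.15, 2.33 and 0.8600 to 18.6, 6.22 and 8.59 TPM (TRINITY_DN39482_c0_g1, log2 fold change 2.04, SE 0.46, adjusted p = 0.0246), with day 5 replicate 1 well above the other exposed libraries. Its call did not hold on leaving out any of 4 of the 12 libraries (adjusted p up to 0.132).

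The extracellular matrix and transport lists had falls and 0 rises as deposited. Of 47 collagen, matrix and adhesion transcripts 3 fell, all collagens, with a list median of -0.10, beside falls in 2.93% of all flatworm hits. The collagen alpha-2(I) transcript TRINITY_DN37330_c0_g3 of 4152 bases went from 164, 168 and 111 to 46.6, 78.7 and 84.8 TPM (log2 fold change -1.09, SE 0.24, adjusted p = 0.0233), and its call did not hold without control replicate 1, control replicate 2 or day 5 replicate 1 (adjusted p up to 0.118). The list had 7 falls after quantile normalization or median-ratio scaling and 0 without control replicate 1. The list of solute carriers and transporters was matched on those words in the hits, so transcripts named only by a symbol, such as slc47a-7, which rose (TRINITY_DN39015_c6_g3, adjusted p = 0.0338), are not in it. Of its 181 members 0 rose and 1 fell, beside falls in 2.93% of all flatworm hits. The one that fell was the acetyl-CoA transporter slc33a-1, from 9.37 ± 1.76 to 4.14 ± 0.611 TPM (TRINITY_DN37339_c1_g8, adjusted p = 0.0285). Its call did not hold on leaving out any of 5 of the 12 libraries (adjusted p up to 0.126). After quantile normalization the carrier list had 11 rises and 2 falls. Of 100 transcription factors 1 fell, beside the same 2.93%. It was zinc finger protein 207-1, a spindle-binding protein by its Swiss-Prot hit, from 37.1 ± 4.002 to 20.7 ± 3.98 TPM (TRINITY_DN35852_c0_g1, adjusted p = 0.0405). Its call did not hold on leaving out any of 8 of the 12 libraries (adjusted p up to 0.183).

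Some of the largest flatworm-hit falls belong to none of these lists. DM9-2 went from 36.3, 30.96 and 23.4 to 8.49, 14.3 and 9.95 TPM (TRINITY_DN25970_c0_g1, log2 fold change -1.40, SE 0.22, adjusted p = 0.00269), a call that held under all 24 alternatives. An angiotensin converting enzyme-1 transcript, a peptidase of 333 bases here, went from 16.4, 7.92 and 13.1 to 3.89, 4.87 and 2.500 TPM (TRINITY_DN37093_c0_g1, log2 fold change -1.48, SE 0.27, adjusted p = 0.00787). Its call held without any 1 of the 12 libraries and was lost under 1 other alternative (adjusted p = 0.0517). Chosen after its values were seen, the abundant TRINITY_DN33767_c0_g4 fell from 410.1 ± 72.9 to 173 ± 28.03 TPM (log2 fold change -1.24, SE 0.24, adjusted p = 0.011); its annotation hit in Dugesia japonica is an aromatic amino acid decarboxylase and its Swiss-Prot hit a calcium-binding protein, so its identity is uncertain. The call did not hold without control replicate 1 or day 5 replicate 1 (adjusted p up to 0.0621).

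Transcripts with hits in ciliates, which are single-celled protists, were lower as a class. All 76 together summed to 886 to 1230 TPM in control and 505 to 559 TPM at day 5, with no overlap. Of the 72 tested, 64 had a log2 fold change below 0. Among histones 9 of 10 fell with a median of -2.57, and 14 of 38 ribosomal proteins fell with a median of -1.30. Over all 72 ciliate hits 31 fell (43.1%) with a median of -1.28, so the ribosomal proteins did not stand out from the class. Histone H2B went from 44.7, 39.5 and 36.4 to 3.83, 0.3400 and 1.38 TPM (TRINITY_DN40711_c0_g1, log2 fold change -4.04, SE 0.37, adjusted p = 2.15e-05). Histone H3 went from 23.1, 25.1 and 22.8 to 2.08, 0.2400 and 0.4900 TPM (log2 fold change -3.79, SE 0.31, adjusted p = 5.62e-06; TRINITY_DN38360_c2_g2). The day 5 libraries held a small remainder of control levels. Centrin, a calcium-binding protein of the basal bodies that anchor cilia, went from 88.6, 61.1 and 45.4 to 3.0, 3.55 and 4.64 TPM (TRINITY_DN16790_c0_g1, log2 fold change -3.77, SE 0.56, adjusted p = 0.00185). All 3 calls held under all 23 alternatives. The ciliate class rests on the Swiss-Prot hit. The annotation hits of H2B, H3 and centrin are animal proteins, of Toxocara canis, Limulus polyphemus and Myotis davidii.

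A few ciliate-hit transcripts moved the other way. The cathepsin L TRINITY_DN2937_c0_g1, whose Swiss-Prot hit is from Paramecium, was at 0.4600, 0.3200 and 0.4000 TPM in control and 6.18, 6.67 and 6.26 TPM at day 5 (log2 fold change 2.40, SE 0.26, adjusted p = 9.96e-05), and its call held under all 23 alternatives. An actin whose Swiss-Prot hit is from Tetrahymena rose from 5.39, 4.51 and 4.200 to 25.8, 17.2 and 18.3 TPM (TRINITY_DN21497_c0_g2, log2 fold change 1.89, SE 0.38, adjusted p = 0.0144), and its call did not hold without day 5 replicate 1 (adjusted p up to 0.0767). A polyubiquitin went from 4.51 ± 1.796 to 11.6 ± 3.82 TPM (TRINITY_DN33189_c2_g3, adjusted p = 0.0424), and its call did not hold on leaving out any of 7 of the 12 libraries (adjusted p up to 0.192). Actins and ubiquitins are conserved across eukaryotes, so for these the class of hit says little about the source of the RNA. The same limit holds for the falls in histones, centrin and ribosomal proteins, which are conserved as well.

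Transcripts with bovid hits fell as well, but their total varied widely between libraries. The 71 transcripts summed to 15091 to 37840 TPM in control and 9688 to 26335 TPM at day 5, and the groups overlapped. Of 51 tested, 41 had a log2 fold change below 0, and 15 of the 71 were at 0 in every day 5 library against 1 in every control library. Several of the bovid hits that fell are mitochondrial. ND3 stood at 101, 78.3 and 93.9 TPM in control and 2.22, 40.2 and 10.7 TPM at day 5 (TRINITY_DN41703_c0_g1, log2 fold change -2.99, SE 0.63, adjusted p = 0.0188), and its call did not hold on leaving out any of 4 of the 12 libraries (adjusted p up to 0.0805). Cytochrome c oxidase subunit I, chosen after its values were seen, went from 229, 221 and 256 to 10.7, 112 and 32.4 TPM (TRINITY_DN37867_c0_g10, log2 fold change -2.74, SE 0.57, adjusted p = 0.0172). This call did not hold on leaving out any of 4 of the 12 libraries (adjusted p up to 0.0654). For both genes day 5 replicate 2 was the highest of the day 5 libraries. Apolipoprotein A-II, a liver-made blood lipid carrier chosen after its values were seen, was at 3.65, 2.75 and 3.66 TPM in control and at 0, 0.09000 and 0.09000 TPM at day 5 (TRINITY_DN40762_c0_g1, log2 fold change -2.03, SE 0.31, adjusted p = 0.00221), and its call held without any 1 of the 12 libraries. What the worms were fed, and when they last fed before sampling, are not in the labels, and the part of food in these values was not tested.

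A pair of bovid hits and 1 other hit shared the same library pattern. The transcript TRINITY_DN34860_c2_g6 matched a goat proline-rich protein in the annotation but protein TAR1 of Kluyveromyces lactis in Swiss-Prot. What it encodes, and from which organism, is thus uncertain. This transcript stood at 1417, 208 and 413 TPM in control and 31.2, 56.7 and 43.9 TPM at day 5 (log2 fold change -3.51, SE 0.70, adjusted p = 0.0134). TRINITY_DN32560_c2_g4, a hypothetical protein of cattle with an NLRC3 Swiss-Prot hit, was at 399.5, 53.2 and 89.3 and 5.32, 12.4 and 4.38 TPM (adjusted p = 0.0114). TRINITY_DN37210_c1_g4, a FAM117B-like transcript with an opossum hit, was at 1269, 217 and 381 and 33.2, 61.3 and 52.8 TPM (adjusted p = 0.0134). Control replicate 1 was by far the highest in all 3, and each call was lost without control replicate 1 or day 5 replicate 1 (adjusted p of 0.0701, 0.0623 and 0.0701 without the former).

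**Figure D4:**
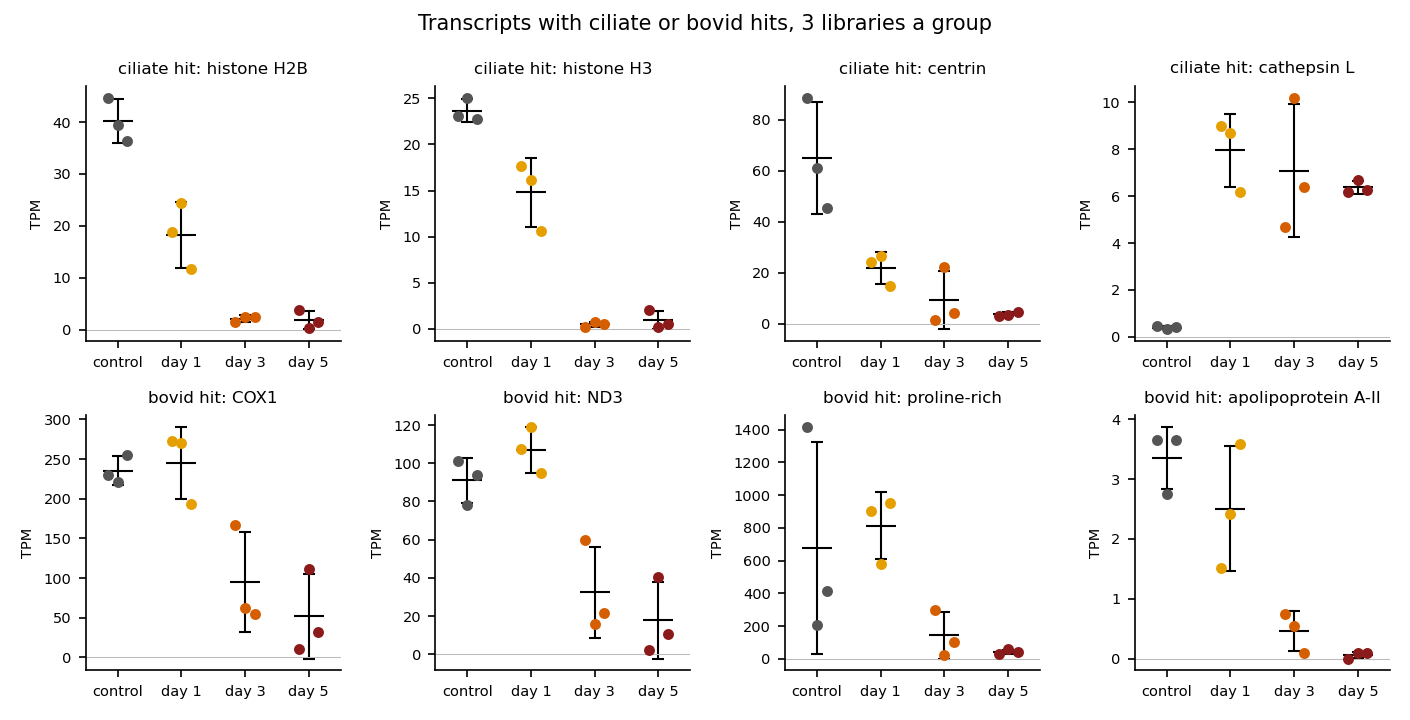
TPM (vertical axes) of 4 transcripts with ciliate hits and 4 with bovid hits in every library of the control, day 1, day 3 and day 5 groups; points are libraries, and bars are the mean and SD of 3. Ciliate-hit histones and centrin are at or below 4.64 TPM at day 5 while the ciliate-hit cathepsin L is near 6 TPM, and bovid-hit transcripts are lower at day 5 with wide spread.

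Transcripts with other or no hits held the widest changes. A 234-base transcript annotated as a ubiquitin-like modifier-activating enzyme, whose Swiss-Prot hit is the ubiquitin-activating enzyme E1 of fission yeast, rose from 15.1, 10.7 and 5.12 to 59.3, 64.3 and 71.1 TPM (log2 fold change 2.65, SE 0.29, adjusted p = 0.00011; TRINITY_DN34907_c1_g2). A histone H3.v1-like transcript with a bird hit fell from 32.1, 23.4 and 27.2 to 0.8600, 0.3200 and 1.11 TPM (log2 fold change -4.03, SE 0.27, adjusted p = 1.98e-06; TRINITY_DN40634_c0_g1). A pterin-4-alpha-carbinolamine dehydratase, an enzyme that recycles the cofactor of aromatic amino acid hydroxylases, fell from 10.2, 12.5 and 8.01 to 0.2700, 0.2700 and 0.9200 TPM (TRINITY_DN3725_c0_g1, log2 fold change -2.93, SE 0.36, adjusted p = 0.000291). The annotation hit of this transcript is from the mite Metaseiulus occidentalis, and its Swiss-Prot match is from the cyanobacterium Prochlorococcus. All 3 calls held under all 23 alternatives.

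Among transcripts with no hit, TRINITY_DN31423_c0_g2 of 212 bases was listed at 0 TPM in all 3 control libraries and at 48.1, 32.1 and 16.6 TPM at day 5 (adjusted p = 4.65e-06). TRINITY_DN31682_c0_g2 of 230 bases was at 0, 1.81 and 0.9800 TPM in control and 18.4, 49.04 and 10.3 TPM at day 5 (adjusted p = 0.000378). The largest fall of all tested transcripts was that of TRINITY_DN39158_c2_g1 with 326 bases, from 123, 129.5 and 110.2 to 0.6800, 0.2600 and 1.71 TPM (log2 fold change -6.08, SE 0.28, adjusted p = 1.29e-08). TRINITY_DN41048_c0_g1 went from 16.2, 25.2 and 15.1 to 0, 0 and 0.7700 TPM (adjusted p = 3.65e-06). In all 4 the groups were far apart, and the calls held under all 23 alternatives. With no hit, nothing is known here of what they encode or which organism made them.

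Day 5 was then set against the earlier exposure times. Against day 3, 0 of 27329 transcripts passed adjusted p under 0.05 in limma, while 842 (3.08%) had an unadjusted p under 0.05. Leaving out day 5 replicate 2 gave 1 call. Against day 1, 134 transcripts (0.49%) passed, 27 higher (0.0988%) and 107 lower (0.392%) at day 5. Of the 134, 8 had a flatworm hit (0.192% of those tested). The count of 134 over all classes of hit became 57, 66 and 67 without day 1 replicates 1, 2 and 3. It became 50, 77 and 54 without day 5 replicates 1, 2 and 3. On the first principal component of the 500 most variable transcripts, holding 41.2% of the variance, scores ran from 14.5 to 19.3 at day 5, from 8.38 to 19.7 at day 3 and from -24.2 to -14.7 in control.

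**Figure D5:**
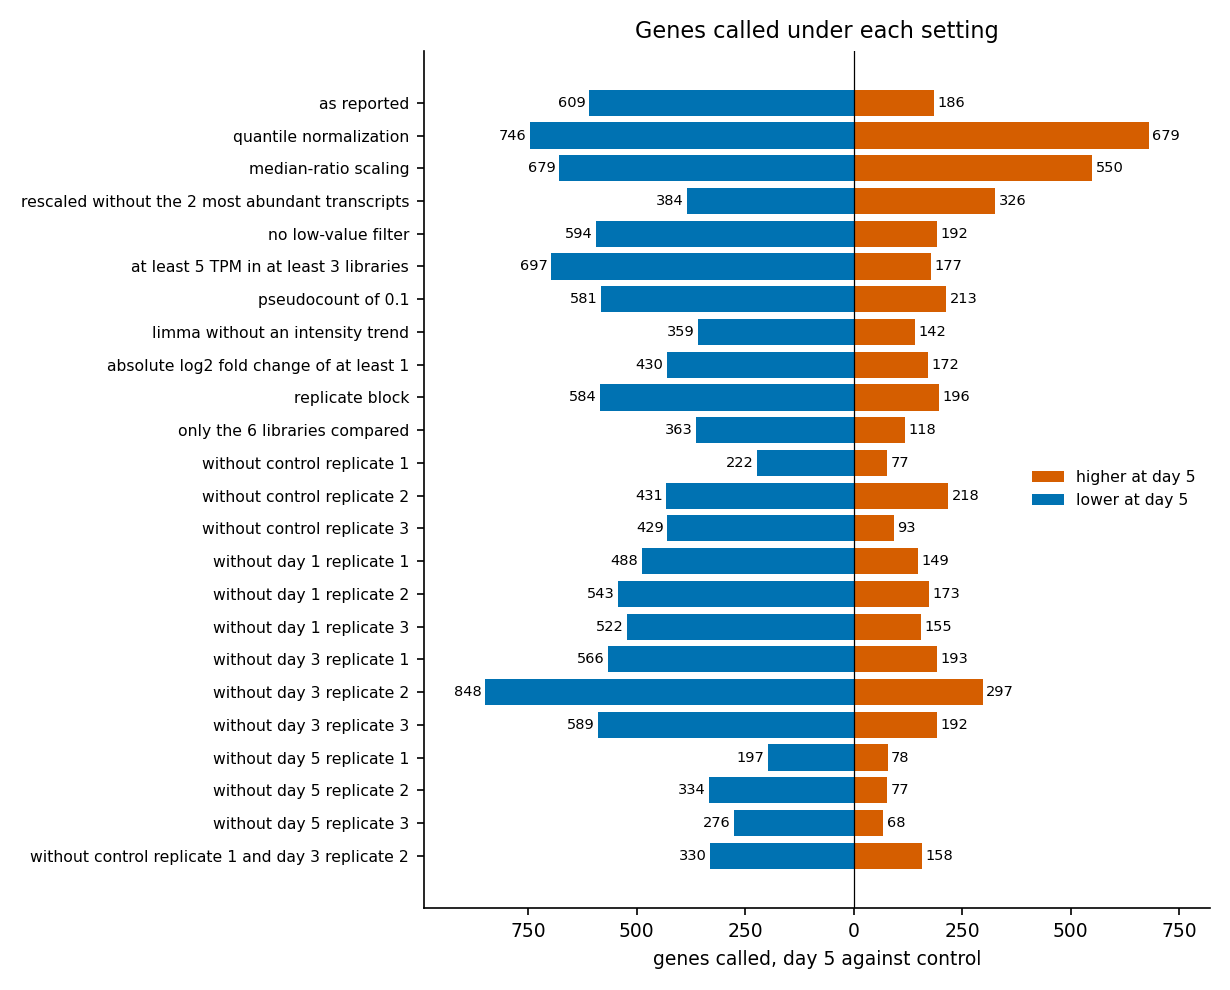
Number of transcripts called at day 5 against control (horizontal axis; bars to the right are higher at day 5, bars to the left lower) as reported and under 23 alternatives. Rises range from 68 to 679 and falls from 197 to 848, and falls outnumber rises in each setting shown.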

How the data were processed

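RNA of whole worms from 12 libraries, 3 in each of 4 groups, was available as 1 table. The authors deposited TPM values for assembled transcripts with annotation and Swiss-Prot hits. cutadapt, FastQC, Salmon and edgeR are named in the submitters' processing notes, without versions. The deposited header does not name the unit; the column sums, 978610 to 986584, are why it is taken as TPM. Depth is unknown, so no counting intervals are given. No other per-sample columns were in the table.

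A transcript entered the test if 3 or more libraries held 1 TPM or more of it. Tests were run on log2(TPM + 1) in limma 3.58.1 (R 4.3.3; tables in Python 3.11.15), with an intensity trend and 4 group means over all 12 libraries. Benjamini-Hochberg adjusted p under 0.05 was the threshold, with no fold minimum. The code was tested on simulated data. The annotation species set the flatworm and bovid classes, and the Swiss-Prot species set the ciliate and plant classes. Named transcripts were called, did not overlap between groups, averaged at least 5 TPM and, except those with no hit, named a protein; they were the largest changes in each direction (8 for flatworm hits, 4 for other hits, 3 each for ciliate and bovid hits, 2 without a hit) and the largest rise and fall among flatworm hits of each list, 55 in all. Others are said to be chosen after their values were seen. The members and the 41 gene lists were chosen with earlier results of these data known, and the word patterns of several lists (small heat shock, autophagy, antioxidant, motile cilia, neurotransmitter receptors, transposons, mitochondrially encoded genes, digestive enzymes, collagen, cell death, cyclins) were corrected after their members were seen. The values of 2 transcripts that the rule took are not reported here. Alternatives were other scalings, filters, pseudocounts and models, and leaving out each library.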

Additional observations from a re-analysis of the deposited data

Results flagged for a closer look

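The difference between day 5 and day 1 was tested directly in limma, with Benjamini-Hochberg adjustment, and 134 transcripts passed. Each library was left out in turn, but no test for outlying samples was run with 3 libraries a group. Values below are log2 differences, day 5 minus day 1, of described transcripts that passed, and all have 3 libraries a group.

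Among flatworm hits, mitochondrial ND3 (TRINITY_DN34363_c3_g9) differed by -1.733, the collagen TRINITY_DN37330_c0_g3 by -1.293, secreted peptide prohormone 18 (TRINITY_DN28060_c0_g1) by -1.345 and TRINITY_DN32575_c0_g1, similar to MS3_00827, by 2.015.

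Ciliate-hit histones H2B (TRINITY_DN40711_c0_g1) and H3 (TRINITY_DN38360_c2_g2) differed by -2.899 and -3.116. Among bovid hits the values were -4.526 for TRINITY_DN32560_c2_g4, -4.186 for TRINITY_DN34860_c2_g6, -3.218 for ND3 (TRINITY_DN41703_c0_g1), -2.784 for cytochrome c oxidase subunit I (TRINITY_DN37867_c0_g10) and -1.686 for apolipoprotein A-II (TRINITY_DN40762_c0_g1).

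Among other hits, the E1-like transcript TRINITY_DN34907_c1_g2 differed by 3.009, the H3.v1-like TRINITY_DN40634_c0_g1 by -2.833, the FAM117B-like TRINITY_DN37210_c1_g4 by -4.011, the pterin dehydratase TRINITY_DN3725_c0_g1 by -2.515 and the TNF receptor-associated factor 3 transcript TRINITY_DN38564_c0_g1 by 1.832. The metallothionein-like TRINITY_DN23386_c0_g2 and TRINITY_DN23911_c0_g1 differed by 2.987 and 1.751. Without a hit, TRINITY_DN31423_c0_g2 differed by 4.54, TRINITY_DN31682_c0_g2 by 3.141 and TRINITY_DN39158_c2_g1 by -3.929.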

How the results depend on the processing

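As reported, 186 transcripts were higher and 609 lower at day 5 than in control, 16 and 122 of them with flatworm hits. The higher count was 679 after quantile normalization, 550 after median-ratio scaling, 326 when rescaled without the 2 most abundant transcripts and 118 with only the 6 libraries compared. Leaving out 1 library at a time gave 68 to 297. The lower count was 384 when rescaled, 359 without the intensity trend, 363 with the 6 libraries, 330 without control replicate 1 and day 3 replicate 2 (chosen after seeing the data) and 197 to 848 leaving out 1 library. By library, higher and lower counts were 77 and 222 without control replicate 1, 93 and 429 without control replicate 3, 297 and 848 without day 3 replicate 2, and 78 and 197, 77 and 334, and 68 and 276 without day 5 replicates 1, 2 and 3. Flatworm rises were 132 after quantile normalization, 99 after median-ratio scaling, 50 rescaled, 32 with at least 5 TPM, 5 without the trend, 25 with the replicate block, 8 with the 6 libraries, 49 when only flatworm hits were tested and 3 to 32 leaving out 1 library. Flatworm falls were 61 rescaled, 205 with at least 5 TPM, 43 without the trend, 54 with a log2 change of at least 1, 62 with the 6 libraries, 230 with flatworm hits alone, 64 without control replicate 1 and day 3 replicate 2, and 20 to 198 leaving out 1 library. Day 5 against day 3 gave 0 or 1 calls, and the genes called at day 5 against day 1 were 134 as reported and 50 to 163 leaving out 1 library. The causes were not tested. With the replicate block 196 were higher and 584 lower. Deviations of same-numbered day 5 and control libraries from their group means correlated with r of 0.15, -0.01 and 0.05. For libraries of different number r ran from -0.14 to 0.11. With 3 libraries a group, these values cannot settle whether the numbers mark a shared culture or preparation. Of 55 named transcripts 22 passed under all alternatives, 33 lost the call under at least 1, and 0 changed direction. TPM gives no depth, so low values carry unknown counting error.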
